A study of Mus musculus with 9 samples.

Results

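The Hox genes are homeobox transcription factors that lie in 4 clusters and give cells their position along the body axis. All 39 rows of the deposited table whose symbol is Hox, a cluster letter a to d and a paralogue number were taken. The table holds 56481 symbols in all. The rule reads the symbol and no measured level, though it was set with earlier results of these data known. The 39 members comprise 11 Hoxa, 10 Hoxb, 9 Hoxc and 9 Hoxd genes. Their levels are described in 3 kinds of mouse cells with 3 RNA-seq libraries each. The iCEC group was made from neural crest cells grown in a medium with 5% knockout serum replacement and 5 µM SB431542, a small molecule that blocks the TGF-β type I receptor, with fresh medium every 2 days. The labels place the appearance of clusters at day 4 and the study of colonies at day 12, and give no time for the RNA. The libraries labelled pCEC came from primary corneal endothelial cells and the pNCC libraries from primary neural crest cells of E13.5 embryos, both kept in 10% fetal bovine serum. Strain, sex, the age of the pCEC donors and the axial level from which neural crest was taken are not given in the sources used here. The labels call the RNA of pCEC 2 and pCEC 3 total RNA and that of the other libraries polyA RNA. They do not say whether replicates were separate animals or cultures, so each p-value reflects no more than how far these particular libraries spread.

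Within each Hox cluster the genes are ordered along the chromosome as they are ordered along the embryo. Low-numbered paralogues are active in the hindbrain and neck, central ones in the trunk, and high-numbered ones towards the limb ends and tail. Neural crest of the trunk and of the hindbrain carries the Hox code of its level of origin. The crest that forms the front of the face and eye tissues, parts of the cornea among them, is known to lack Hox expression. Polycomb proteins keep the clusters silent outside their domains, Trithorax proteins keep them active, and Hox proteins bind DNA together with TALE homeodomain partners of the Pbx, Meis and Pknox families.

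Total counts ran between 27389292 and 47967113 per library, so that 3 counts, the limit that a count of 0 allows, amounted to 0.0625 to 0.110 CPM (the count over the library total, scaled to 1e+06). Such limits and all intervals below cover counting error only. Of 16 neural crest markers, 12 to 14 had a count in iCEC, 14 to 15 in pCEC and all 16 in pNCC, with Foxd3 at 0 in every iCEC library and Sox10 at 0 in iCEC 1, iCEC 3 and pCEC 1, and their sums ran between 424.5 and 904.7 CPM in iCEC, 486.1 and 578.5 CPM in pCEC, and 508.0 and 789.3 CPM in pNCC. On defining markers, the pNCC libraries held Sox10 at 37.8, 52.1 and 16.9 CPM, and iCEC and pCEC libraries at no more than 0.444 CPM. The libraries labelled pCEC held Krt12, the keratin of the corneal surface epithelium, at 8974, 10428 and 11145 CPM. They also held the endothelial transporter gene Slc4a11 at 75.0, 79.9 and 28.2 CPM. Of 18 corneal endothelium markers, Slc4a11 among them, 16 to 17 had a count in iCEC and 17 to 18 in pCEC and in pNCC. Their sums ran between 2775 and 3018 CPM in iCEC, 1840 and 2235 CPM in pCEC, and 1382 and 1510 CPM in pNCC. Every iCEC sum of this list thus lay above every pCEC sum. Of 13 surface epithelium markers, 12 to 13 had a count in iCEC, 13 in pCEC and 11 to 12 in pNCC, with Krt12 at 0 in all pNCC libraries and in iCEC 1 and 2, and their sums ran between 15817 and 20575 CPM in iCEC, 33898 and 46725 CPM in pCEC, and 92.8 and 143.2 CPM in pNCC. Of 11 mesenchyme and skeletal muscle markers, 4 to 8 had a count in iCEC, 6 to 7 in pCEC and 11 in pNCC, with Myod1 and Actc1 at 0 in every iCEC and pCEC library, and their sums ran between 6.34 and 67.2 CPM in iCEC, 272.9 and 4115 CPM in pCEC, and 16766 and 30019.8 CPM in pNCC. Marker levels differed between the groups together with Hox levels, and the part of the cells they mark in the Hox results was not tested. In bulk RNA, fewer cells that express a gene and less RNA per cell cannot be told apart.

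Hox RNA was plentiful in iCEC and pNCC and close to absent in pCEC. Summed over the 39 genes, it reached 374.4, 322.9 and 64.5 CPM in iCEC 1, 2 and 3, then 0.299, 0.388 and 0.584 CPM in pCEC 1, 2 and 3, and 99.4, 89.1 and 384.2 CPM in pNCC 1, 2 and 3. Members with more than 3 counts numbered 34, 28 and 13 in the iCEC libraries, 1 in each pCEC library, and 23, 24 and 32 in the pNCC libraries. Every pCEC library lay below every iCEC and pNCC library. The lowest sums outside pCEC belonged to iCEC 3, and then to pNCC 2 and pNCC 1. Hoxb1, Hoxd12 and Hoxd13 had no count in any of the 9 libraries, and Hoxc12 had 2 counts in pNCC 3 and none elsewhere.

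**Figure D1:**
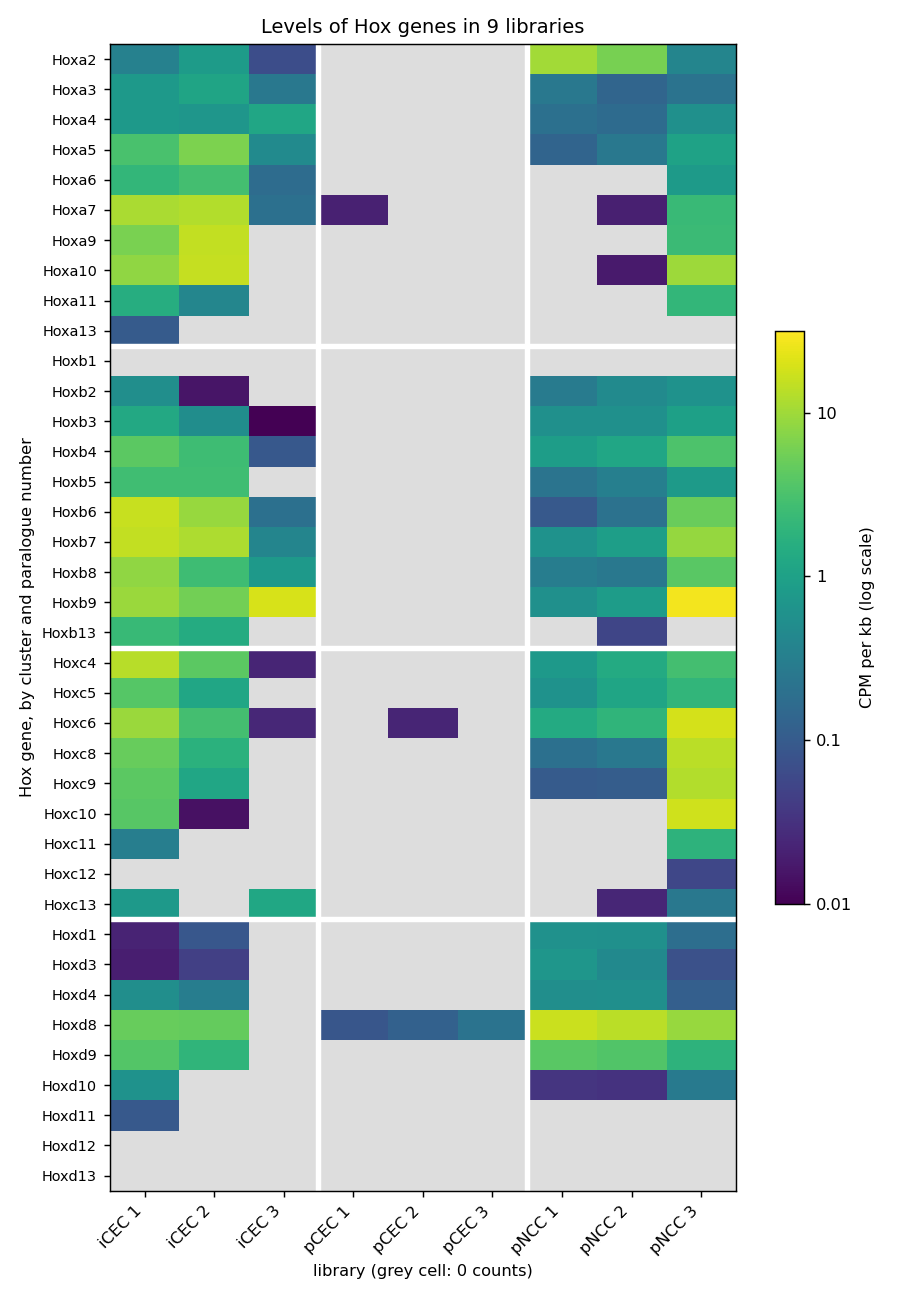
Level of Hox genes (rows, by cluster and paralogue number) in each library (columns), as CPM per kb of exon on a log colour scale, with 0 counts in grey. iCEC 1, iCEC 2 and pNCC 3 are filled over most rows. pNCC 1 and pNCC 2 are filled mainly in low-numbered and central rows, with Hoxd8 highest. iCEC 3 is filled in fewer rows, with Hoxb9 highest. The pCEC columns are filled only at Hoxd8 and at 2 counts each of Hoxa7 and Hoxc6.

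The libraries labelled pCEC held 40 Hox counts in all. Hoxd8 gave 36 of these, with 8 counts in pCEC 1, 12 in pCEC 2 and 16 in pCEC 3, or 0.239, 0.333 and 0.584 CPM. Hoxa7 had 2 counts in pCEC 1 and Hoxc6 had 2 in pCEC 2. The other 36 members were at 0 in all 3 libraries, which allows up to 0.0898 CPM in pCEC 1, 0.0832 CPM in pCEC 2 and 0.110 CPM in pCEC 3 for each. Hoxd8 overlaps the antisense gene Hoxd3os1 in the annotation, and the labels do not state counting by strand, so the few Hoxd8 counts cannot be assigned to a strand.

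In iCEC the 3 libraries differed from each other in which Hox genes they held. iCEC 1 and iCEC 2 had a broad set. In iCEC 1, Hoxb6 (16.3 CPM per kb), Hoxb7 (15.3), Hoxc4 and Hoxa7 (11.3) were highest per length of the exon union, in that order. In iCEC 2 the leading genes were Hoxa10 (15.5 CPM per kb), Hoxa9 (15.2) and Hoxa7 (12.6). iCEC 3 was dominated by 1 gene: Hoxb9 gave 1678 of its 2168 Hox counts, a share of 77.4% (95% Wilson interval 75.6 to 79.1%), at 19.4 CPM per kb. Of the 35 members with over 3 counts in any iCEC library, 19 were at 0 in iCEC 3, among them all Hoxd genes, and iCEC 3 was the highest of the 3 libraries for Hoxa4, Hoxb9 and Hoxc13 only.

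The pNCC libraries also split. In pNCC 1 and pNCC 2 the highest level per length was that of Hoxd8, at 16.7 and 13.6 CPM per kb, followed by Hoxa2, at 10.2 and 5.98 CPM per kb. In pNCC 3 it was that of Hoxb9, at 27.8 CPM per kb, followed by Hoxc6 at 19.1 and Hoxc10 at 17.7 CPM per kb. Several of these orders depend on the length used: per kb of the longest transcript, Hoxb7 (18.3) led iCEC 1, Hoxa9 (26.4) led iCEC 2 and Hoxc6 (29.1) stood above Hoxb9 in pNCC 3, while Hoxb9 led iCEC 3, and Hoxd8 followed by Hoxa2 led pNCC 1 and pNCC 2, with either length. Of 33 members with over 3 counts in any pNCC library, 25 were highest in pNCC 3, 6 in pNCC 1 (Hoxa2, Hoxa3, Hoxd1, Hoxd3, Hoxd8 and Hoxd9) and 2 in pNCC 2 (Hoxb13 and Hoxd4).

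The windows around the transcription starts of Hoxd8, in the centre of the Hoxd cluster, and of Hoxa2, which patterns the second pharyngeal arch, are shown because these genes led pNCC 1 and pNCC 2. They cover 250 bases before and 50 after the start (RefSeq, GRCm38.p6) and are given 5′ to 3′ on the gene's own strand, at chr2:74704365-74704664 (plus strand) for Hoxd8 and chr6:52164782-52165081 (minus strand) for Hoxa2. Capitals mark CpG dinucleotides.
Hoxd8: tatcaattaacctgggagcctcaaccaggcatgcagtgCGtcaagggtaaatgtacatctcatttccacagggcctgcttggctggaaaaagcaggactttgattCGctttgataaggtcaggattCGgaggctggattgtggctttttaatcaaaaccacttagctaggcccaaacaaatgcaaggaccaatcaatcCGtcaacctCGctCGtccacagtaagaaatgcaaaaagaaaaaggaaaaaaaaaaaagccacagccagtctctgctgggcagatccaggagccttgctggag
Hoxa2: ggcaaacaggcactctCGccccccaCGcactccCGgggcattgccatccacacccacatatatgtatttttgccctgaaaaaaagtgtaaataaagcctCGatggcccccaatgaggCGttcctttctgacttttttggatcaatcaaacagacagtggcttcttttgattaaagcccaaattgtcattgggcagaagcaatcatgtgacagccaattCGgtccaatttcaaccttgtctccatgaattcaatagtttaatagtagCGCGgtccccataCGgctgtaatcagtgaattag
The Hoxd8 window held 6 CpG and the Hoxa2 window 9, against a median of 14.5 over the 24 windows of 22 Hox genes in the table (range 4 to 45) and of 7 over all 32851 windows. The letters TGATTNAT, a type of site bound by Pbx and Hox together, searched on both strands, were in the Hoxa2 window and 1 of the Hoxd11 windows, 8.33% of Hox windows and 3.22% of all windows. TTTATNG, a type of site bound by posterior Hox and Cdx proteins, was in the Hoxb8 and Hoxd4 windows, 8.33% of Hox windows and 10.9% of all.

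The most posterior gene with over 3 counts differed by cluster and library. In the Hoxa cluster it was Hoxa13 in iCEC 1, Hoxa11 in iCEC 2, Hoxa7 in iCEC 3, Hoxa5 in pNCC 1 and pNCC 2, and Hoxa11 in pNCC 3. In Hoxc (chr15:102921103-103036852, mm10) it was Hoxc13 in iCEC 1 and iCEC 3, Hoxc9 in iCEC 2, Hoxc9 in pNCC 1 and pNCC 2, and Hoxc13 in pNCC 3. In Hoxd (chr2:74668310-74765142) it was Hoxd11 in iCEC 1 and Hoxd9 in iCEC 2, with no Hoxd count in iCEC 3, Hoxd9 in pNCC 1 and pNCC 2, and Hoxd10 in pNCC 3. In Hoxb (chr11:96194316-96368256), where no gene numbered 10 to 12 exists, it was Hoxb13 in iCEC 1, iCEC 2 and pNCC 2, and Hoxb9 in iCEC 3, pNCC 1 and pNCC 3. The Hoxb13 reading of pNCC 2 rests on 4 counts.

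Grouped by number, the posterior paralogues 9 to 13 gave 33.0, 50.1 and 82.0% of the Hox counts of iCEC 1, 2 and 3, and 10.4, 11.6 and 50.6% of those of pNCC 1, 2 and 3. The central paralogues 4 to 8 gave 62.6, 46.1 and 10.7% in iCEC 1, 2 and 3, against 61.0, 66.0 and 46.6% in pNCC 1, 2 and 3. The anterior paralogues 1 to 3 gave 4.34, 3.81 and 7.29% in iCEC 1, 2 and 3, against 28.6, 22.4 and 2.75% in pNCC 1, 2 and 3. The 95% Wilson intervals of these shares reach at most 1.69 percentage points to either side. pNCC 3 thus had a posterior share at the level of iCEC 2, and an anterior share below those of all 3 iCEC libraries.

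**Figure D2:**
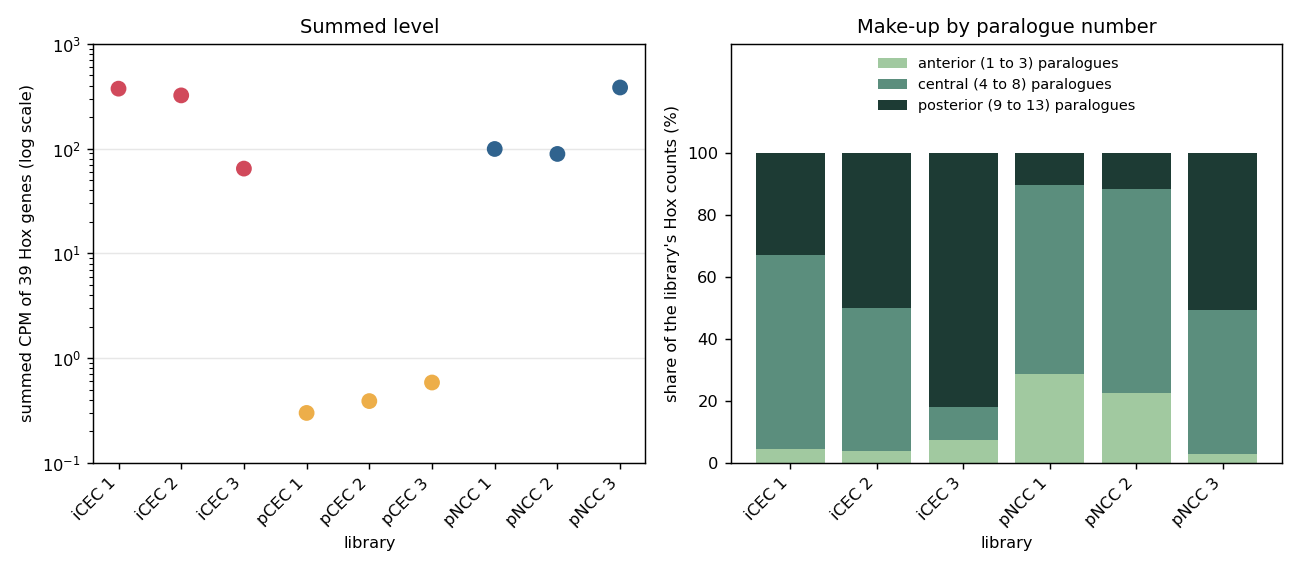
Left, CPM summed over the 39 Hox genes in each of the 9 libraries, on a log axis; right, the share (%) of each iCEC and pNCC library's Hox counts from anterior (1 to 3), central (4 to 8) and posterior (9 to 13) paralogues. The pCEC sums lie between 0.299 and 0.584 CPM, and the posterior share is smallest in pNCC 1 and pNCC 2, at 10.4 and 11.6%.

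Spearman's rho of CPM, not divided by length, was taken over the 36 members with a count in any library. It was 0.879 between iCEC 1 and iCEC 2 and 0.965 between pNCC 1 and pNCC 2. The coefficient reached 0.833 between iCEC 1 and pNCC 3 and 0.663 between iCEC 2 and pNCC 3, but 0.177 and 0.236 between pNCC 3 and its fellow pNCC libraries 1 and 2. Values of iCEC 3 with the other 5 libraries ran between 0.152 and 0.327. These coefficients describe pairs of libraries, and the genes share clusters and reads. At a group mean of at least 1 CPM, the highest library of a group exceeded the lowest by a median of at least 62.6-fold for 26 Hox genes in iCEC, against 1.89-fold for all genes, and by at least 14.2-fold for 26 Hox genes in pNCC, against 1.26-fold for all genes. A library with 3 counts or fewer was set to 3 counts, so that 15 of the Hox ratios in iCEC and 6 in pNCC are lower bounds. At least 10-fold differences within the group were seen in 22 of the 26 Hox genes (84.6%) in iCEC and 14 of the 26 (53.8%) in pNCC, and in 10.9 and 0.675% of all genes in iCEC and pNCC.

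Hoxb9, which patterns the trunk and is expressed in trunk mesoderm, neural tube and crest, had 24.2, 14.8 and 49.9 CPM in iCEC 1, 2 and 3, no count in pCEC, and 1.46, 2.20 and 71.6 CPM in pNCC 1, 2 and 3. iCEC libraries were all above pNCC 1 and pNCC 2 and all below pNCC 3. Its paralogues of the same number did not follow it in iCEC 3. Hoxa9, a trunk and limb patterning gene also known from leukaemia, had 34.4, 85.1 and 0 CPM in iCEC 1, 2 and 3, no count in pCEC, and 0, 0 and 13.6 CPM in pNCC 1, 2 and 3. Hoxc9, a thoracic paralogue, had 10.2, 2.89 and 0 CPM in iCEC 1, 2 and 3, no count in pCEC, and 0.249, 0.264 and 30.1 CPM in pNCC 1, 2 and 3. For Hoxd9 the values were 7.71, 4.14 and 0 CPM in iCEC 1, 2 and 3, 0 in pCEC, and 8.58, 7.59 and 3.88 CPM in pNCC 1, 2 and 3. Within paralogue group 9, then, iCEC 3 had reads of Hoxb9 alone and pNCC 1 and 2 had more of Hoxd9 than of the other members, also per length.

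Among the Hoxa genes, Hoxa4, like Hoxa2, Hoxa3 and Hoxa5, had reads in every iCEC and pNCC library. It had 1.25, 1.12 and 1.88 CPM in iCEC 1, 2 and 3, no count in pCEC, and 0.311, 0.264 and 0.914 CPM in pNCC 1, 2 and 3, so its iCEC and pNCC values did not overlap. Hoxa2 had 0.605, 1.50 and 0.119 CPM in iCEC 1, 2 and 3, no count in pCEC, and 18.2, 10.6 and 0.685 CPM in pNCC 1, 2 and 3. Here pNCC 1 and pNCC 2 stood above all other libraries, and pNCC 3 lay within the iCEC range. The central gene Hoxa7 had 32.4, 36.3 and 0.565 CPM in iCEC 1, 2 and 3, 0.0598, 0 and 0 CPM in pCEC 1, 2 and 3, and 0, 0.0586 and 6.77 CPM in pNCC 1, 2 and 3. Hoxa5, needed for lung and neck skeleton, had 5.80, 12.2 and 0.893 CPM in iCEC 1, 2 and 3, no count in pCEC, and 0.249, 0.469 and 1.97 CPM in pNCC 1, 2 and 3. The limb and posterior gene Hoxa10 had 27.1, 50.8 and 0 CPM in iCEC 1, 2 and 3, none in pCEC, and 0, 0.0586 and 31.7 CPM in pNCC 1, 2 and 3. Both genes were low in iCEC 3 and high in iCEC 1 and 2, with pNCC 3 the highest pNCC library.

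Among the Hoxb genes, Hoxb2 to Hoxb8 were all highest within pNCC in pNCC 3 and lowest within iCEC in iCEC 3. Hoxb6 had 32.0, 17.9 and 0.387 CPM in iCEC 1, 2 and 3, no count in pCEC, and 0.187, 0.411 and 9.99 CPM in pNCC 1, 2 and 3. Hoxb7 had 23.6, 18.1 and 0.595 CPM in iCEC 1, 2 and 3, none in pCEC, and 0.933, 1.41 and 13.8 CPM in pNCC 1, 2 and 3. For Hoxb8, the neighbour of Hoxb9, the values were 21.7, 6.78 and 2.08 CPM in iCEC 1, 2 and 3, 0 in pCEC, and 0.808, 0.674 and 10.7 CPM in pNCC 1, 2 and 3. These 3 genes thus shared an order of libraries that most members had. Of members with over 3 counts in any library of the group, 25 of 33 were highest within pNCC in pNCC 3. In iCEC, 27 of 35 were lowest in iCEC 3. Hoxb13, the most posterior gene of the cluster and known for the prostate and tail, had 4.98, 3.11 and 0 CPM in iCEC 1, 2 and 3, no count in pCEC, and 0, 0.117 and 0 CPM in pNCC 1, 2 and 3. Hoxb13 was thus above the 3-count limit in iCEC 1 and 2, and in pNCC it had 4 counts in pNCC 2 and none in the other libraries.

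The Hoxc genes described here, other than Hoxc13, had their highest iCEC value in iCEC 1, and all had their highest pNCC value in pNCC 3. Hoxc4, of the neck and forelimb level, had 34.5, 10.7 and 0.0595 CPM in iCEC 1, 2 and 3, no count in pCEC, and 1.93, 3.52 and 7.37 CPM in pNCC 1, 2 and 3. Hoxc6, of the forelimb and upper thorax, had 22.8, 6.84 and 0.0595 CPM in iCEC 1, 2 and 3, 0, 0.0555 and 0 CPM in pCEC 1, 2 and 3, and 3.36, 4.75 and 46.0 CPM in pNCC 1, 2 and 3. The lumbar and hindlimb gene Hoxc10 had 7.34, 0.0272 and 0 CPM in iCEC 1, 2 and 3, none in pCEC, and 0, 0 and 33.8 CPM in pNCC 1, 2 and 3. Hoxc10 therefore had over 3 counts in only 2 of the 9 libraries, iCEC 1 and pNCC 3. Hoxc13, a gene of hair and nail epithelium as well as of the tail, had 1.92, 0 and 2.98 CPM in iCEC 1, 2 and 3, none in pCEC, and 0, 0.0586 and 0.628 CPM in pNCC 1, 2 and 3. It was the only Hoxc gene with over 3 counts in iCEC 3.

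Of the 9 Hoxd genes, none had a count in iCEC 3. Hoxd8 had 13.4, 12.8 and 0 CPM in iCEC 1, 2 and 3, 0.239, 0.333 and 0.584 CPM in pCEC 1, 2 and 3, and 45.8, 37.4 and 25.2 CPM in pNCC 1, 2 and 3. Its iCEC and pNCC values did not overlap. Hoxd3, an anterior gene of the neck vertebrae, had 0.0834, 0.191 and 0 CPM in iCEC 1, 2 and 3, no count in pCEC, and 2.89, 1.91 and 0.314 CPM in pNCC 1, 2 and 3. Hoxd1, the most anterior member, had 0.0417, 0.163 and 0 CPM in iCEC 1, 2 and 3, none in pCEC, and 1.09, 1.06 and 0.343 CPM in pNCC 1, 2 and 3. For both genes every pNCC library lay above every iCEC library. Hoxd3 shares exons with or overlaps Hoxd4, Mir10b, Haglr and Hoxd3os1, and 23 of the 39 members overlap some other annotated gene, so their reads may be divided or shared between them.

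**Figure D3:**
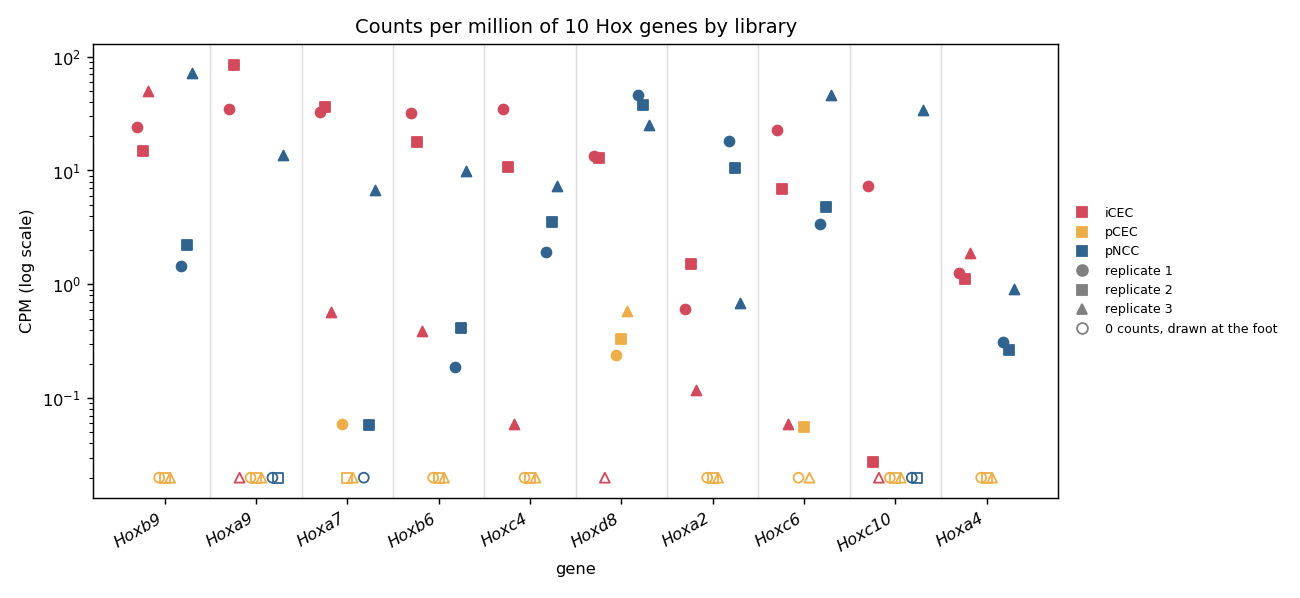
CPM of 10 Hox genes on a log axis, with iCEC, pCEC and pNCC from left to right for each gene, symbols for replicates 1, 2 and 3, and open symbols at the foot for 0 counts. Hoxb9 lies between 14.8 and 49.9 CPM in iCEC, at 0 in pCEC and between 1.46 and 71.6 CPM in pNCC, while Hoxa4 and Hoxd8 are the only genes of the 10 whose iCEC and pNCC symbols do not overlap.

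The comparison of iCEC with pNCC asks how the Hox code of the induced cells differs from that of neural crest cells. Of the 39 members, 29 passed the filter on low counts and none passed the adjusted threshold of 0.05 in edgeR's quasi-likelihood test, against 31.3% of 16293 genes tested. At an unadjusted p under 0.05 there were 4, Hoxd3, Hoxd1, Hoxa3 and Hoxa2, against 42.8% of all genes, and groups did not overlap for 4 of 29 (Hoxa4 higher in iCEC, Hoxd1, Hoxd3 and Hoxd8 lower), against 51.0% of all genes. The DESeq2 Wald test called 5 of 32 with an adjusted p (it gave none for 4 more), with Hoxa3 and Hoxa5 higher and Hoxa2, Hoxd1 and Hoxd3 lower, against 30.7% of all genes with an adjusted p. The Hox share called thus lay below the background in both tests. The median standard error (SE) of a log2 fold change was 1.49 for the Hox genes and 0.383 for all genes, so differences of the usual size could not be resolved here, and the lack of calls does not show that levels were alike.

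The largest fitted differences of iCEC over pNCC in the negative direction were those of Hoxd3, with a log2 fold change of -4.07 (SE 1.26, adjusted p = 0.0533 by edgeR), Hoxa2 with -3.61 (SE 1.38, adjusted p = 0.0960) and Hoxd1 with -3.46 (SE 1.09, adjusted p = 0.0555). In the positive direction Hoxa7 had 3.40 (SE 2.23), Hoxa9 3.21 (SE 2.72) and Hoxa5 2.89 (SE 1.22), all short of the threshold, and Hoxa3 had 1.88 (SE 0.690, adjusted p = 0.0859). By cluster, fitted values were positive for 8 of 10 tested Hoxa genes, 6 of 8 Hoxb genes, 3 of 6 Hoxc genes and 0 of 5 Hoxd genes. The Hoxd signs rested in part on iCEC 3, which had no Hoxd count. Without iCEC 3, Hoxd4 had 0.13 (SE 0.745), Hoxd9 -0.1 (SE 0.446) and Hoxd10, then also tested, 1.46 (SE 1.63). Hoxd1, Hoxd3 and Hoxd8 stayed negative. The median over the 29 was 0.44, against 0.05 for all genes.

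Single libraries set these values. Without iCEC 3, edgeR called 8 of 33 members, with Hoxa3, Hoxa5, Hoxb5, Hoxb13 and Hoxc4 higher in iCEC and Hoxd1, Hoxd3 and Hoxd8 lower, against 44.4% of all genes. Hoxd8 then had a log2 fold change of -1.39 (SE 0.264, adjusted p = 0.00912; range over its alternatives 0.00912 to 0.546), and Hoxb13 one of 6.63 (SE 1.13). Hoxb9 had a log2 fold change of 0.14 (SE 1.42, adjusted p = 0.949). It was -0.35 without iCEC 3 and -0.43 without pNCC 1 or without pNCC 2, and it was 3.97 (SE 0.595, adjusted p = 0.0183; range over its alternatives 0.0183 to 0.973) without pNCC 3, where Hoxb9 was the only member called, against 15.5% of all genes. Without iCEC 1 the single call was Hoxb2, lower in iCEC, against 26.0% of all genes, and without iCEC 2 it was Hoxd1, lower in iCEC, against 27.2% of all genes.

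**Figure D4:**
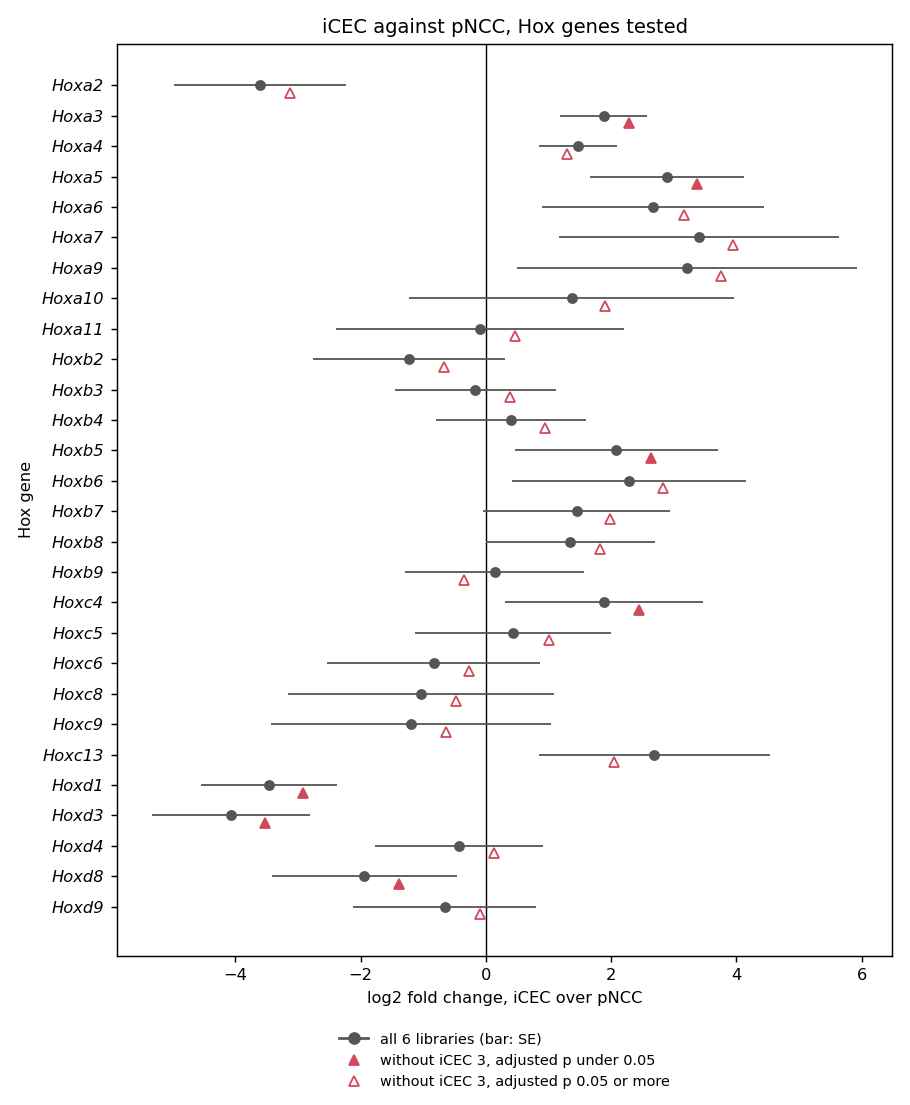
Log2 fold change of iCEC over pNCC for Hox genes tested, in cluster order from top to bottom. Circles with bars give the value and SE from all 6 libraries, and triangles the value without iCEC 3, filled where the adjusted p was under 0.05. All 5 Hoxd circles lie below 0, between -4.07 and -0.43, while the triangles of Hoxd4 and Hoxd9 lie at 0.13 and -0.1.

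The comparison of pCEC with pNCC asks how primary cells of the cornea differ from neural crest. With all but 40 counts missing from pCEC, a member could pass the filter only through its level in pNCC. The 19 members that passed were all called lower in pCEC, against 32.2% of 16608 genes tested, and this count follows from the filter and is not read further. Hoxd8, the only member with over 3 counts in each pCEC library, was 86.3-fold lower there (edgeR adjusted p = 1.27e-05), a log2 fold change of -6.43 with an SE of 0.385. For members at 0 in pCEC, folds are lower bounds computed at 3 counts per library. Hoxb9 was at least 266.5-fold lower in pCEC, Hoxc8 at least 140.8-fold, Hoxa2 at least 104.4-fold and Hoxd9 at least 71.0-fold. The bounds of Hoxb9 and Hoxc8 rest on pNCC 3: without it Hoxb9 was at least 19.4-fold lower in pCEC and Hoxc8 at least 6.71-fold (log2 fold changes by edgeR of -8.82 and -7.29, against -12.69 and -11.77 with all libraries). The Hoxc6 ratio of pNCC over pCEC was 899 (95% counting interval 249 to 7431). Hoxb9 and Hoxc8 lost their calls when pCEC 1, pCEC 2 or pCEC 3 was left out. The adjusted p of Hoxb9 by edgeR was then 0.0588 to 0.0616, against 0.0302 with all 3 (range over its alternatives 0.00171 to 0.239), and that of Hoxc8 was 0.0783 to 0.0813, against 0.0422 (range over its alternatives 0.00343 to 0.270). Without a filter on low counts 17 members were called, and Hoxa2, Hoxb7, Hoxb8, Hoxb9 and Hoxc8 were not among them. DESeq2 called 17 of the 19 members to which it gave an adjusted p, and it gave none to Hoxb7, Hoxb8, Hoxb9, Hoxc6 and Hoxc8.

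Among members that did not pass the filter, the following also reached their bounds mainly through pNCC 3. Hoxc10 was at least 119.7-fold lower in pCEC than in pNCC, Hoxa10 at least 112.4-fold and Hoxa9 at least 48.2-fold, while pNCC 1 and pNCC 2 held at most 2 counts of each. Hoxc9 was at least 108.4-fold lower and Hoxb6 at least 37.5-fold, against 2.72-fold and 3.17-fold without pNCC 3. Hoxa13, Hoxb1, Hoxd11, Hoxd12 and Hoxd13 had no count in either group. Hoxc12 had 2 counts in pNCC 3 alone, and Hoxb13 had 4 counts in pNCC 2 alone, where its mean over the pNCC libraries lay under the 3-count limit. No fold is given for these 7.

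The comparison of iCEC with pCEC asks how far the induced cells share the Hox state of the primary cells. It uses the same pCEC libraries as the comparison above. Of 10 members that passed the filter, 9 were called higher in iCEC, against 10.5% of 16278 genes tested. They passed again through the group where they are high, so this count, like the p-value of Hoxb9 below, is not read further. The 9 included Hoxa3, Hoxa4, Hoxa5 and Hoxa7 of the Hoxa cluster and Hoxb6, Hoxb7, Hoxb8 and Hoxb9 of the Hoxb cluster. Hoxb9 was at least 314.9-fold higher in iCEC (adjusted p = 0.00408 by edgeR), Hoxb6 at least 177.8-fold, Hoxb7 at least 149.9-fold and Hoxb8 at least 108.3-fold. The Hoxa7 ratio was 1190 (95% counting interval 329 to 9835). Hoxd8 had a log2 fold change of 4.41 (SE 1.83, adjusted p = 0.142) and overlapping groups, because iCEC 3 had no Hoxd8 count while each pCEC library had at least 8.

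Here too the number of calls depended on single libraries. Without iCEC 3, all 26 members tested were called higher in iCEC, against 28.7% of all genes called in either direction. With pCEC close to 0, members passed the filter through their iCEC level, so this count is not read further. Without pCEC 1, pCEC 2 or pCEC 3 in turn, 4 were called each time, Hoxa3, Hoxa4 and Hoxb9 among them, against 7.84, 6.63 and 6.55% of all genes. With pCEC represented by pCEC 1, its polyA library, whose spread is then assumed to equal that of iCEC, edgeR called 0 of 32 Hox genes and 0 of all 18806 genes, while 10 Hox genes and 2529 of all genes had an unadjusted p under 0.05. For pCEC 2 and pCEC 3 the labelled kind of RNA and the group cannot be told apart. Hoxa9, at least 422.9-fold higher in iCEC than in pCEC, and Hoxa10, at least 275.8-fold higher, did not pass the filter, since iCEC 3 had none of either.

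RNA of TALE cofactors such as Pbx3 was also read in pCEC, where Hox RNA was close to 0. Pbx3, a direct partner of Hox proteins, had 9.94, 8.61 and 11.0 CPM in iCEC 1, 2 and 3, 39.3, 38.6 and 36.1 CPM in pCEC 1, 2 and 3, and 25.5, 20.5 and 20.2 CPM in pNCC 1, 2 and 3. It was lower in iCEC than in pCEC (log2 fold change -2.07, adjusted p = 0.00200 by edgeR) and none of the 3 groups overlapped. Pknox2 stood out among the 9, with 0, 0 and 0.119 CPM in iCEC 1, 2 and 3, 0.299, 1.83 and 0.803 CPM in pCEC 1, 2 and 3, and 23.9, 18.8 and 8.31 CPM in pNCC 1, 2 and 3. It fell in iCEC against pNCC (log2 fold change -8.80) and in pCEC against pNCC (-3.95). Pbx3 also fell in iCEC against pNCC (-1.17, a call lost without pNCC 1) but rose in pCEC against pNCC (0.91). In all, 0 of 9 rose and 2 fell in iCEC against pNCC, 3 rose and 3 fell in pCEC against pNCC, and 1 rose and 1 fell in iCEC against pCEC. The 2 calls of iCEC against pNCC became 5 without iCEC 3 and 1 without pNCC 1, and the 2 of iCEC against pCEC became 4 without iCEC 3 and 1 without pCEC 2 or pCEC 3. Over all genes tested, 31.3% were called in iCEC against pNCC, 62.5% in pCEC against pNCC and 20.4% in iCEC against pCEC, the values beside which the counts of this and the following lists stand. The median log2 fold change of the 9 was -0.99 in iCEC against pNCC, 0.23 in pCEC against pNCC and -0.70 in iCEC against pCEC. The comparisons share their iCEC, pCEC or pNCC libraries.

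Of 23 Polycomb genes, 5 rose and 2 fell in iCEC against pNCC, 12 rose and 7 fell in pCEC against pNCC, and 1 rose and 4 fell in iCEC against pCEC. Cbx7, a reader of the Polycomb mark, had 29.0, 43.3 and 44.6 CPM in iCEC 1, 2 and 3, 47.2, 46.8 and 33.9 CPM in pCEC 1, 2 and 3, and 3.54, 1.94 and 1.03 CPM in pNCC 1, 2 and 3. It rose in iCEC and in pCEC against pNCC, by log2 fold changes of 4.18 and 4.43. Ezh1, a methyltransferase of the complex, rose by 1.67 and 1.56 in the same comparisons. Jarid2, which brings the complex to its targets, rose in pCEC against pNCC (2.31) and fell in iCEC against pCEC (-1.54, a call lost without pCEC 1 or pCEC 2). Median log2 fold changes over the list were 0.25 in iCEC against pNCC, 0.49 in pCEC against pNCC and -0.17 in iCEC against pCEC, with 0.05, -0.01 and 0.04 over all genes. The 7 calls of iCEC against pNCC became 12 without iCEC 3 and 3, 2 and 2 without pNCC 1, 2 and 3, and the 5 of iCEC against pCEC became 3 without iCEC 1 and 2, 1 and 2 without pCEC 1, 2 and 3.

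Of 10 Trithorax and H3K27 demethylase genes, 3 rose and 2 fell in iCEC against pNCC, 2 rose and 2 fell in pCEC against pNCC, and 1 rose in iCEC against pCEC. The 5 calls of iCEC against pNCC became 2 without any 1 pNCC library and 3 without iCEC 1. The demethylase Kdm6b was higher in iCEC than in pNCC (log2 fold change 0.70) and than in pCEC (0.93), the single call of that comparison, and each call was lost when any 1 pNCC or pCEC library was left out. Psip1, a chromatin-bound partner of the Trithorax protein Kmt2a, was lower in iCEC (-1.16) and in pCEC (-1.53) than in pNCC.

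Upstream regulators that differed between groups included the retinoic acid receptor gene Rarb, Gdf11, a signal that turns on posterior Hox genes in the embryo, and Zbtb16, a zinc finger factor that acts on Hox genes in the limb. Rarb had 4.50, 10.1 and 5.65 CPM in iCEC 1, 2 and 3, 0.449, 0.693 and 0.876 CPM in pCEC 1, 2 and 3, and 0.280, 0.293 and 0.0571 CPM in pNCC 1, 2 and 3. It rose in iCEC against pNCC (log2 fold change 5.04, adjusted p = 0.00562 by edgeR) and against pCEC (3.20, adjusted p = 0.0131), where the call was lost when any 1 pCEC library was left out. Gdf11 had 4.29, 1.42 and 9.82 CPM in iCEC 1, 2 and 3, 0.658, 0.333 and 0.329 CPM in pCEC 1, 2 and 3, and 33.6, 44.9 and 51.8 CPM in pNCC 1, 2 and 3, and fell in iCEC (-3.15, a call lost without pNCC 2 or pNCC 3) and in pCEC (-6.49) against pNCC. Zbtb16 had no count in iCEC, 4.73, 5.57 and 2.56 CPM in pCEC 1, 2 and 3, and 0.124, 0 and 0.0571 CPM in pNCC 1, 2 and 3. It was higher in pCEC than in pNCC (log2 fold change 6.20, adjusted p = 0.000312 by edgeR) and at least 55.0-fold lower in iCEC than in pCEC. The caudal genes Cdx1, Cdx2 and Cdx4 reached at most 0.235 CPM in any library. Of the 15 regulators, 8 were tested in iCEC against pNCC (3 rose, 1 fell), 9 in pCEC against pNCC (5 rose, 3 fell) and 10 in iCEC against pCEC (2 rose, 3 fell). The 4 calls of iCEC against pNCC became 2, 1 and 1 without pNCC 1, 2 and 3, and the 5 of iCEC against pCEC became 3 without any 1 pCEC library.

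Some factors that mark the head differed between libraries that also differed in their Hox genes. Others did not split pNCC in this way, since Otx1 was at or near 0 throughout pNCC and Pitx1 in pNCC 3 lay between pNCC 1 and pNCC 2. Barx1, Dlx6 and Alx1, which act in mesenchyme of the jaws and face, had 7.80, 2.33 and 3.76 CPM in pNCC 1 and 5.57, 0.938 and 2.17 CPM in pNCC 2, and no count in pNCC 3. Muscle regulators differed in the same direction, with Myod1 at 1.62, 1.70 and 0.285 CPM and Myog at 3.85, 3.64 and 0.514 CPM in pNCC 1, 2 and 3. Otx1, a forebrain, eye and corneal epithelium factor, had 2.59, 7.79 and 88.4 CPM in iCEC 1, 2 and 3, 158, 204 and 172 CPM in pCEC 1, 2 and 3, and 0, 0.0586 and 0 CPM in pNCC 1, 2 and 3. Among iCEC libraries, iCEC 3 had the lowest Hox sum and the highest Otx1. Tfap2b, a head crest and eye gene, had 0, 0 and 54.7 CPM in iCEC 1, 2 and 3, 18.2, 38.0 and 20.2 CPM in pCEC 1, 2 and 3, and 5.35, 8.68 and 1.26 CPM in pNCC 1, 2 and 3. Pitx1, a hindlimb and jaw factor, had 503, 569 and 56.9 CPM in iCEC 1, 2 and 3, 0.868, 0.555 and 0.730 CPM in pCEC 1, 2 and 3, and 3.29, 1.79 and 2.83 CPM in pNCC 1, 2 and 3. Barx1, Dlx6, Alx1, Tfap2b, Myod1 and Myog were chosen after their values were seen, and the part of the cells they mark in the Hox results was not tested.

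Counted over the lists, 12 of 15 cranial crest factors were tested in iCEC against pNCC, where 0 rose and 3 fell, 11 in pCEC against pNCC (1 rose, 7 fell) and 8 in iCEC against pCEC (2 rose, 1 fell). These calls depended on single libraries: 3 became 6 without iCEC 3 or pNCC 3 in iCEC against pNCC, 8 became 13 without pNCC 3 in pCEC against pNCC, and 3 became 8 without iCEC 3 and 0 without any 1 pCEC library in iCEC against pCEC. Among limb and trunk factors, 1 of 10 tested rose and 5 fell in iCEC against pNCC, 0 rose and 7 of 9 fell in pCEC against pNCC, and 4 of 6 rose and 1 fell in iCEC against pCEC, where 3 were called without iCEC 1 or any 1 pCEC library. Tbx15, a trunk and limb mesenchyme factor, had 1.54, 6.65 and 0.357 CPM in iCEC 1, 2 and 3, 0.120, 0.0555 and 0.0730 CPM in pCEC 1, 2 and 3, and 209, 215 and 215 CPM in pNCC 1, 2 and 3. It fell in iCEC (log2 fold change -6.11) and in pCEC (-11.15) against pNCC and was alike in the 3 pNCC libraries, unlike the posterior Hox genes. Of forebrain and eye factors, 2 of 4 rose and 2 fell in iCEC against pNCC, 3 of 5 rose and 1 fell in pCEC against pNCC, and 1 of 4 rose and 2 fell in iCEC against pCEC. Calls of iCEC against pNCC numbered 1, 1 and 2 without pNCC 1, 2 and 3. Pax6, the eye master regulator, had 0.104, 0.708 and 0.0595 CPM in iCEC 1, 2 and 3, 975, 797 and 724 CPM in pCEC 1, 2 and 3, and 0.187, 0.147 and 0 CPM in pNCC 1, 2 and 3.

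**Figure D5:**
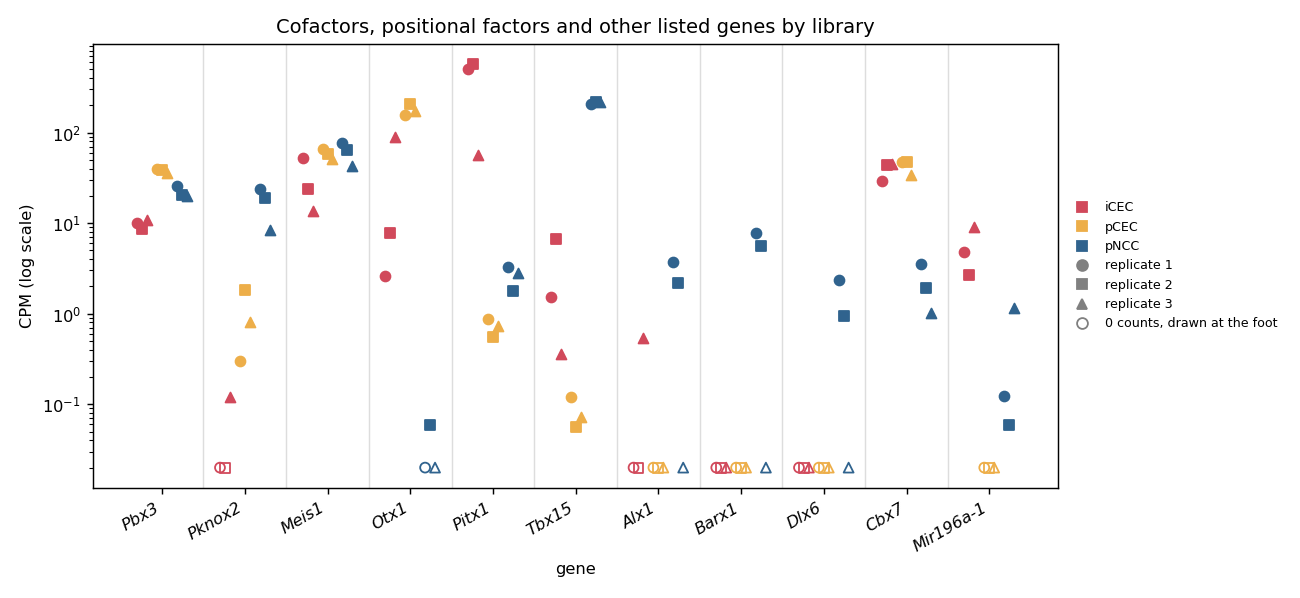
CPM of 11 listed genes (Hox cofactors, positional factors, the Polycomb reader Cbx7 and the Mir196a-1 locus) on a log axis, with iCEC, pCEC and pNCC from left to right for each gene, symbols for replicates, and open symbols at the foot for 0 counts. Otx1 is between 158 and 204 CPM in pCEC and at most 0.0586 CPM in pNCC, and Barx1 and Dlx6 are at 0 in pNCC 3 but not in pNCC 1 or pNCC 2.

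Of 17 non-coding genes inside the clusters in the table, 7 were tested in iCEC against pNCC (1 rose, 0 fell), 5 in pCEC against pNCC, all lower, and 3 in iCEC against pCEC, all higher. With next to no reads in pCEC, these genes could pass the filter only through the other group, so the pCEC counts are not read further. Calls in iCEC against pNCC numbered 0 without pNCC 1 or pNCC 2 and 2 without iCEC 3. Hotairm1, a long RNA of the Hoxa cluster, had 1.75, 1.69 and 3.48 CPM in iCEC 1, 2 and 3, 0, 0 and 0.146 CPM in pCEC 1, 2 and 3, and 0.342, 0.381 and 0.428 CPM in pNCC 1, 2 and 3, and rose in iCEC against pNCC (log2 fold change 2.54, adjusted p = 0.00910 by edgeR), a call lost when any 1 pNCC library was left out. The long RNA Hotair of the Hoxc cluster had at most 0.0571 CPM, and Hottip of the Hoxa cluster had no count.

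The Mir196a-1 locus lies 6191 bases before Hoxb9 on the same strand and encodes a microRNA that represses posterior-central Hox messages. It had 228, 99 and 308 counts in iCEC 1, 2 and 3, none in pCEC, and 4, 2 and 40 counts in pNCC 1, 2 and 3. The corresponding Mir196a-1 levels were 4.75, 2.70 and 9.17 CPM for iCEC libraries 1, 2 and 3, against 0.124, 0.0586 and 1.14 CPM for pNCC libraries 1, 2 and 3. Its groups did not overlap (log2 fold change 3.55 in iCEC against pNCC, adjusted p = 0.0628 by edgeR), and it was highest in the library of each group with the highest Hoxb9. These are fragments of long RNA over the hairpin's position and not mature microRNA. The mature sequence (RefSeq, GRCm38.p6, chr11:96265187-96265208, plus strand) is shown with its seed, bases 2 to 8, in capitals, above a stretch of the Hoxb8 3′ UTR, bases 418 to 439 after the stop codon in the GENCODE M21 transcript, with the bases that can form Watson-Crick pairs with it in capitals.
mmu-miR-196a-5p: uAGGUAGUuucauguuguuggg
Hoxb8 site: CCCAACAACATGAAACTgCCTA
Read against each other in opposite directions, 21 of the 22 positions form Watson-Crick pairs and 1 a G-U pair. This was the best such match among the 3′ UTRs of the 39 members, and the next best, in Hoxd8, had 15 Watson-Crick pairs. The letters that complement the seed itself, ACTACCT, were in the 3′ UTR of 8 of the 39 members (Hoxa4, Hoxa5, Hoxa7, Hoxa9, Hoxb1, Hoxb6, Hoxb7 and Hoxc8), against 6.06% of 21020 genes with an annotated 3′ UTR. Median 3′ UTR length was 966 bases for the members and 935 for all genes. Of the 8, Hoxa7, Hoxb6 and Hoxc8 were lower in iCEC 3, which held the most Mir196a-1 reads, than in iCEC 1 and iCEC 2, as were Hoxa5, Hoxa9 and Hoxb7, and most members without the letters were lower there too, while Hoxa4, which holds them, was highest in iCEC 3.

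Genes that flank the clusters were read in pCEC. Of 15, 13 were tested, of which 4 rose and 2 fell in iCEC against pNCC, 3 rose and 4 fell in pCEC against pNCC, and 4 rose and 2 fell in iCEC against pCEC. Skap2, next to the anterior end of Hoxa, had 96.5, 81.9 and 139 CPM in iCEC 1, 2 and 3, 30.8, 29.1 and 39.8 CPM in pCEC 1, 2 and 3, and 37.4, 33.1 and 40.7 CPM in pNCC 1, 2 and 3. Mtx2, beyond the anterior end of Hoxd, had 74.5, 54.9 and 61.7 CPM in iCEC 1, 2 and 3, 43.0, 39.5 and 38.0 CPM in pCEC 1, 2 and 3, and 61.5, 64.9 and 65.7 CPM in pNCC 1, 2 and 3. Skap2 was higher in iCEC than in pNCC (log2 fold change 1.49) and than in pCEC (1.52, a call lost without pCEC 2), and Mtx2 was lower in pCEC than in pNCC (-0.55, adjusted p = 0.00244 by edgeR). Snx10, of the same list, had 47.0, 48.7 and 60.5 CPM in iCEC 1, 2 and 3, 7.54, 5.94 and 7.48 CPM in pCEC 1, 2 and 3, and 40.5, 28.5 and 34.4 CPM in pNCC 1, 2 and 3. It was lower in pCEC than in pNCC (-2.17) and higher in iCEC than in pCEC (2.77). All 3 genes were thus read in every pCEC library, where 36 Hox genes had no count, and Snx10 and Mtx2 were lowest in pCEC. Calls numbered 2 without any 1 pNCC library in iCEC against pNCC, and 3, 2 and 3 without pCEC 1, 2 and 3 in iCEC against pCEC. Of 13 related homeobox genes outside the clusters (Evx, Meox, Gbx, En and others), 3 were tested in iCEC against pNCC, where 1 rose and 2 fell, 3 in pCEC against pNCC, where 1 rose and 2 fell, and 1 in iCEC against pCEC, which fell, and was not called without iCEC 1 or any 1 pCEC library. In iCEC against pNCC, 1 was called without iCEC 2, pNCC 1 or pNCC 2, and 2 without iCEC 1 or pNCC 3.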

How the data were processed

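The deposited table holds counts of reads per gene symbol for 9 libraries, made by the authors. The submitters' processing notes name mm10 and edgeR, and the aligner, counter, annotation and use of strand are not given in the sources used here. Library preparation used a NEBNext Ultra RNA kit with 150-base paired reads, per the labels' protocols. CPM is the count divided by the library total, and CPM per kb divides this by the exon union of GENCODE M21. Counts were tested per pair of groups with edgeR 4.0.16 (R 4.3.3), using filterByExpr, TMM scaling and the robust quasi-likelihood test, 2-sided, with Benjamini-Hochberg adjustment over all genes tested and a threshold of 0.05. DESeq2 1.42.0, other filters and scalings, a fit of all 9 libraries, the polyA pCEC library alone, a replicate block and leaving out each library were alternatives. The code was tested on simulated data. Shares have 95% Wilson intervals. A fold against a group at 0 was computed with 3 counts per library. Groups were taken from the titles. Sequences come from RefSeq (GRCm38.p6) and 3′ UTRs from GENCODE M21. Genes were named as follows: Hox genes with the highest level per length in any group (up to 5 a cluster), Hoxb9, Hox genes called with groups that did not overlap, and the listed genes with the smallest adjusted p (up to 4 a list and comparison). The members and lists were chosen with earlier results of these data known. One Hox gene and some other listed genes are not reported here by name, and they remain in the sums, counts and fits.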

Additional observations from a re-analysis of the deposited data

How the results depend on the processing

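In iCEC against pNCC, edgeR called 0 Hox genes; this became 5 with DESeq2, 1 with all 9 libraries in one fit, 2 with the replicate block, and 0 to 8 when each library was left out in turn. Calls over all genes, 5093, became 2864 with the block and 2322 to 7684 with a library left out. Hoxb9, at 0.14, changed sign, to -0.35 without iCEC 3 and -0.43 without pNCC 1 or pNCC 2, and was 3.97 without pNCC 3. In pCEC against pNCC, 19 Hox calls became 9 with a filter of 1 CPM in 3 libraries, where fewer genes are tested, 17 with DESeq2 or without a filter, 14 with the polyA pCEC library alone, and 19 to 21 with a library left out. In iCEC against pCEC, 9 Hox calls became 5 with that filter, 20 with DESeq2, 16 with all 9 libraries, 0 with the polyA pCEC library alone, 5 with the block, and 4 to 26 with a library left out. Calls over all genes, 3327, became 3098 with the filter, 4962 with DESeq2, 4972 with all 9 libraries, 0 with the polyA library alone, 1295 with the block, and 1131 to 4974 with a library left out. Where the setting itself does not show it, the cause was not tested. Samples share only a replicate number. Deviations of same-numbered libraries correlated between -0.227 and 0.058, and those of differently numbered libraries reached 0.215. With 3 libraries a group, these values cannot show whether the numbers pair the samples. Hoxd8 in pCEC against pNCC kept its direction and call in all 13 alternatives, between -7.18 and -6.10. Among the named genes, 1455 of 1699 values kept direction and side of the threshold. These were 700 of 735 in pCEC against pNCC, where many Hox genes are at 0 in pCEC. They were 381 of 466 in iCEC against pNCC, where 3 values changed sign, and 374 of 498 in iCEC against pCEC. Levels under 3 counts per library were not measurable at this depth.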
